A study of Mus musculus with 9 samples.

Results

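The genes described are 36 antioxidant enzymes and targets of the transcription factor NRF2, picked by symbol from a left ventricular count table that annotates 22036 genes. They occupy 37 rows of the table, since the transhydrogenase gene Nnt has 2, and every one of the 37 rows passed the filter on low counts. By role they comprise 2 regulators (Nfe2l2, which encodes NRF2, and Keap1), 16 genes known to be induced by NRF2, 6 mitochondrial proteins, and 12 enzymes and proteins of the cytosol, of other organelles or of the extracellular space. Bulk mRNA sequencing was done on left ventricles of wild-type mice in 3 groups of 3 biological replicates. ND AAV-CON, called the normal-diet group, was given diet ND (taken to mean normal diet) with a control vector of adeno-associated virus. HFD AAV-CON, called the high-fat group, was given diet HFD (taken to mean high-fat) with that same control vector. HFD AAV-BCKDK, called the BCKDK group, was given diet HFD with a vector carrying the name of the kinase BCKDK. All 9 animals thus carried an AAV vector and a wild-type genotype. For strain, age, sex, diet composition and length, vector dose and the promoter of the vector, the sources used here give nothing. The series title places the study around BCKDK, the kinase that inhibits branched-chain ketoacid dehydrogenase, in obesity-induced cardiac remodelling with mitochondrial reactive oxygen species and the kinases JNK and p38.

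NRF2 is a leucine zipper factor that KEAP1 holds in the cytosol and delivers to the proteasome. Oxidants and electrophiles modify cysteines of KEAP1, NRF2 then accumulates, and with small MAF proteins it binds the antioxidant response element of genes for glutathione synthesis, thioredoxin recycling, quinone reduction, NADPH supply and haem and iron handling. Superoxide is turned into hydrogen peroxide by superoxide dismutases, and the peroxide is removed by catalase, glutathione peroxidases and peroxiredoxins. In the heart much of this work lies in the mitochondrial matrix, where the respiratory chain releases superoxide and where NNT supplies NADPH for the matrix thioredoxin and glutathione systems.

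Levels are given as CPM (read counts scaled by library size, here the TMM-scaled size), differences as log2 fold changes with their standard error (SE), and a gene is called risen or fallen where its adjusted p from edgeR's quasi-likelihood test, adjusted over all 14160 genes tested, was below 0.05. Library totals ranged from 32803233 to 45483044 counts. Mitochondrially encoded transcripts took 42.1% to 45.7% of counts in the normal-diet group, 26.1% to 39.9% in the high-fat group and 45.0% to 47.6% in the BCKDK group. Bckdk itself, the gene the vector is named for, averaged 73.2 ± 4.69 CPM in the normal-diet group, 50.5 ± 14.0 in the high-fat group and 118.8 ± 7.50 in the BCKDK group (SD, n = 3). The defining cardiomyocyte markers were present in all libraries. HFD AAV-CON replicate 3 lay between the other HFD AAV-CON libraries for 64.1% of genes, against 14.8% to 37.1% for the other libraries within their groups. Its independence is not settled, so counts are also given without it.

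Between the high-fat and the normal-diet group, that is with the diet, 11 of the 36 genes rose, 14 fell and 11 were not called, a share to be read against the 43.3% of all tested genes called in that comparison. The risen genes were 30.6% of the 36, against 22.7% of all genes, and the fallen were 38.9%, against 20.6%. Slc7a11, counted here and in the vector comparison, passed the filter on low counts only through the HFD AAV-CON libraries. The median log2 change of the set was -0.062, over the 35 genes with a single row. Between the BCKDK and the high-fat group, that is with the vector, 14 genes rose, 10 fell and 12 were not called, where 38.2% of all genes were called, and the median was 0.18. Counting Nnt by either row, 11 genes had high-fat libraries all above and 16 all below the normal-diet range, where 55.3% of all genes did not overlap (28.2% higher, 27.1% lower). With the vector 17 were all higher and 11 all lower, where 51.2% did not overlap (24.0% higher, 27.3% lower). Both comparisons use the HFD AAV-CON libraries, so their values stand side by side and are not independent. Without HFD AAV-CON replicate 3 the counts were 7 risen and 7 fallen with the diet, and 3 risen and 7 fallen with the vector. Calls over all genes dropped too, from 6134 to 4050 with the diet and from 5410 to 2847 with the vector. Other single libraries also moved them by more than 1.5 times. The diet gave 5 risen without ND AAV-CON replicate 1 and 6 without replicate 2, and 7 risen without HFD AAV-CON replicate 1. It gave 8 fallen without ND AAV-CON replicate 2 and 9 without replicate 3. The vector gave 4 risen without HFD AAV-BCKDK replicate 1, 8 risen without replicate 2, and 6 fallen without replicate 3. Of all genes, 3194 were called with the vector without HFD AAV-BCKDK replicate 1 and 3403 without replicate 2.

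The split between higher and lower genes depended on the scaling. TMM scaling put 3215 genes up and 2919 down with the diet, and 2444 up and 2966 down with the vector. Scaling by total counts moved the median of all genes to 0.40 with the diet and -0.47 with the vector, and gave 5986 up with 934 down and 398 up with 6867 down. On that scale the 36 genes split into 17 risen and 7 fallen with the diet, and into 4 risen and 16 fallen with the vector. Values below are on the TMM scale.

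**Figure D1:**
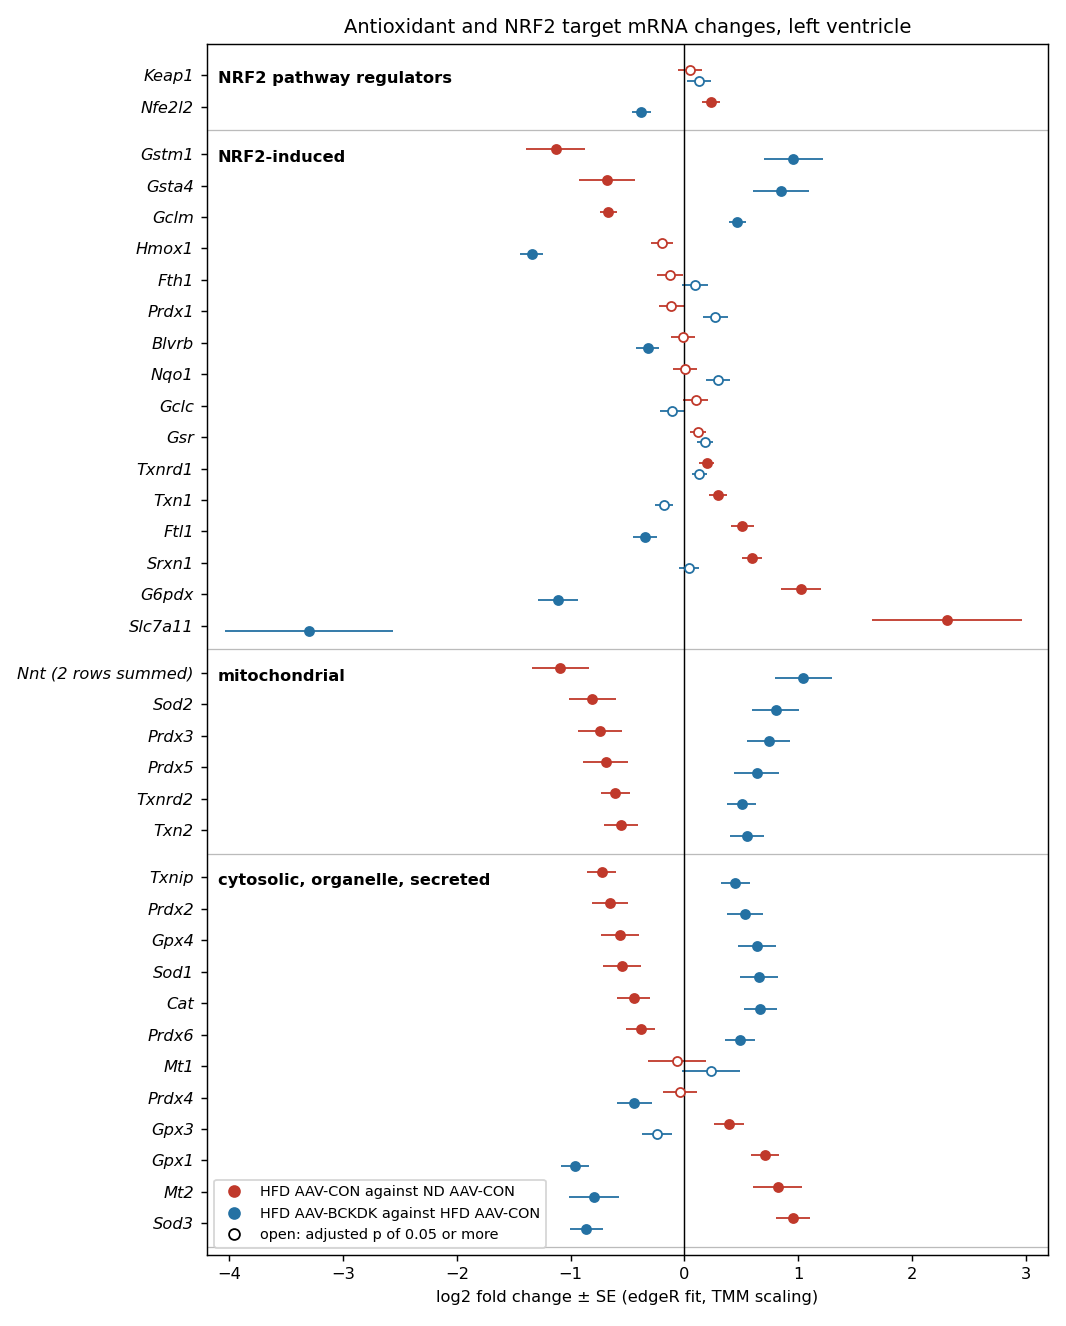
Log2 fold changes (x axis, with SE bars) of each gene, ordered by role, for the diet comparison (HFD AAV-CON against ND AAV-CON) and the vector comparison (HFD AAV-BCKDK against HFD AAV-CON). The 5 mitochondrial genes with a single row lie below 0 with the diet and above 0 with the vector, whereas the NRF2-induced genes lie on both sides of 0 in each comparison.

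The regulators had small changes. Nfe2l2 stood at 96.0, 84.5 and 95.4 CPM in the 3 ND AAV-CON libraries, 109.8, 105 and 109.8 in the high-fat group and 88.2, 84.3 and 76.8 in the BCKDK group. The HFD AAV-CON libraries were the highest and overlapped neither other group. Nfe2l2 mRNA rose with the diet by 0.23 (SE 0.08, adjusted p = 0.0456), a call lost without any 1 of 8 libraries (adjusted p from 0.0509 to 0.163), all except HFD AAV-CON replicate 2. With the vector it fell by 0.38 (SE 0.08, adjusted p = 0.00877). Keap1 stood at 33.0, 34.0 and 37.8 CPM in the normal-diet group, 34.9, 41.3 and 32.1 in the high-fat group and 36.9, 39.9 and 41.6 in the BCKDK group, with overlapping groups. Its log2 changes were 0.047 with the diet and 0.13 with the vector, neither called, though the second passed without HFD AAV-CON replicate 2 (adjusted p = 0.0355) and the first on the total-count scale (0.43, adjusted p = 0.017). Since NRF2 is controlled mainly through protein stability, its mRNA level is no measure of its activity.

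The 16 NRF2-induced genes did not move as a block. With the diet 6 rose (Srxn1, Txnrd1, Txn1, Ftl1, G6pdx and Slc7a11), 3 fell (Gclm, Gstm1 and Gsta4) and 7 were not called. With the vector 3 rose (Gclm, Gstm1 and Gsta4), 5 fell (Hmox1, G6pdx, Slc7a11, Ftl1 and Blvrb) and 8 were not called. Slc7a11, counted in both comparisons, passed the filter on low counts only through the HFD AAV-CON libraries. As shares of the 16, 37.5% rose and 18.8% fell with the diet, against 22.7% and 20.6% of all genes. With the vector 18.8% rose and 31.2% fell, against 17.3% and 20.9%. The share fallen with the diet and the share risen with the vector lay near the background. Without HFD AAV-CON replicate 3 the diet gave 4 risen and 2 fallen, and the vector 1 risen and 3 fallen. In that fit 4050 of all genes were called with the diet and 2847 with the vector, against 6134 and 5410 in the full fit. On the total-count scale the diet gave 11 risen and 2 fallen and the vector 1 risen and 10 fallen. All genes shifted there too, with 5986 up and 934 down with the diet, and 398 up and 6867 down with the vector. NRF2-induced genes called only on that scale were Nqo1, Gsr, Gclc, Fth1 and Prdx1 as risen with the diet (adjusted p from 0.00813 to 0.048) and Txnrd1, Srxn1, Txn1, Gclc and Fth1 as fallen with the vector (adjusted p from 0.00581 to 0.0271).

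The core of the antioxidant response element, TGACNNNGC (N is any base), was searched on both strands of RefSeq promoter windows on build GRCm38.p6, from 250 bases before to 50 after each start. A window was found for 29 of the 36 genes, so Hmox1, Gclc, Gsr, Gsta4, Nnt, Sod3 and Prdx6 were not searched. The core was in 8 of these genes (27.6%), in 5 of 12 NRF2-induced genes, in 0 of 5 mitochondrial genes and in 2 of 10 genes of the cytosol and other compartments, against 14.0% of the 27025 genes with a window. The matches in Prdx1 and Mt2 also hold TGACTCA, the AP-1 element, which cannot be told apart from the response element here. Below are the stretches around the match in 3 NRF2-induced genes with different values (Gclm fell with the diet, Txnrd1 rose and Prdx1 was not called) and in Mt2, a metallothionein whose neighbour Mt1 has no match in its window. Capitals mark the core, and a match on the other strand reads as its reverse complement. All 4 genes lie on the plus strand, and none of the printed bases is annotated as exon.
Prdx1, chr4:116685440-116685500, first base of the match at position -133 from the start: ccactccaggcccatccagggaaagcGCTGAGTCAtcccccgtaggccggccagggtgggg
Txnrd1, chr10:82859088-82859148, position -92: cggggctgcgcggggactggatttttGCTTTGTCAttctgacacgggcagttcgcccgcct
Gclm, chr3:122245397-122245457, position -134: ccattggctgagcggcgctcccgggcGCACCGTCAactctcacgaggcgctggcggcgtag
Mt2, chr8:94172513-94172573, position -79: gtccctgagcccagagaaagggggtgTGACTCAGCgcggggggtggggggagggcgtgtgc
The other matches were TGACTCCGC in Nfe2l2, TGACTGAGC in G6pdx, TGACCTAGC in Srxn1 and TGACCACGC in Sod1. A match describes the letters and is no measure of NRF2 binding. Genes with the core and genes without it are found among the risen, the fallen and those not called.

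Hmox1 encodes haem oxygenase 1, which opens haem into biliverdin, iron and carbon monoxide. It stood at 48.3, 46.7 and 48.1 CPM in the normal-diet group, 42.2, 38.6 and 43.7 in the high-fat group and 17.5, 17.5 and 14.1 in the BCKDK group. The 3 BCKDK libraries lay below every other library, from underlying counts of 513, 496 and 595. With the vector Hmox1 fell by 1.34 (SE 0.10, adjusted p = 0.000606). The diet change of -0.20 was not called (adjusted p = 0.117), although the HFD AAV-CON libraries lay below those of ND AAV-CON. Blvrb, a biliverdin reductase that acts after haem opening, fell with the vector by 0.32 (SE 0.10, adjusted p = 0.036), a call lost without any 1 of 6 libraries (adjusted p from 0.0527 to 0.122): ND AAV-CON replicate 1, each HFD AAV-CON replicate, and HFD AAV-BCKDK replicates 2 and 3.

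The ferritin chains, which store the iron that haem oxygenase releases, differed from each other. Ftl1, the light chain, stood at 418, 443 and 477 CPM in the normal-diet group, 655, 635 and 616 in the high-fat group and 558, 462 and 477 in the BCKDK group. All HFD AAV-CON libraries exceeded all others. Ftl1 rose by 0.51 with the diet (SE 0.10, adjusted p = 0.00482) and fell by 0.35 with the vector (SE 0.10, adjusted p = 0.0277). The vector call was lost without HFD AAV-CON replicate 1 or 3 or HFD AAV-BCKDK replicate 2 or 3 (adjusted p from 0.0676 to 0.104). Fth1, the heavy chain with the iron oxidising site, had log2 changes of -0.13 and 0.092, neither called. Both chains have many near-identical copies in the mouse genome, so their counts are uncertain. Per kilobase of exon, Fth1 was the most abundant of the 36 genes in the normal-diet group at 483 CPM per kb, ahead of Txnip at 334 and Ftl1 at 333.

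Of the NRF2-induced genes that handle thiols, Srxn1 (sulfiredoxin, which restores overoxidised peroxiredoxins) and Txnrd1 (cytosolic thioredoxin reductase) were higher in both high-fat groups. Srxn1 stood at 26.2, 26.9 and 30.3 CPM in the normal-diet group, 41.6, 42.4 and 42.2 in the high-fat group and 47.2, 43.8 and 38.9 in the BCKDK group. No high-fat library reached down to the ND AAV-CON range, and the high-fat groups overlapped each other. Srxn1 rose by 0.60 with the diet (SE 0.09, adjusted p = 0.0014), and its vector change was 0.041 (SE 0.09, adjusted p = 0.74). That vector value turned to -0.023 without HFD AAV-BCKDK replicate 1 and to -0.42 on the total-count scale. Txnrd1 stood at 56.8, 57.5 and 54.8 CPM in the normal-diet group, 62.9, 67.1 and 63.6 in the high-fat group and 74.2, 70.8 and 67.2 in the BCKDK group. The 3 groups did not overlap, in that rising order, with the lowest BCKDK library only just above the highest high-fat one. Txnrd1 rose by 0.20 with the diet (SE 0.07, adjusted p = 0.043), a call lost without any 1 of the 9 libraries (adjusted p from 0.0523 to 0.134), and its vector change of 0.13 was not called.

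Txn1, the cytosolic thioredoxin that Txnrd1 recycles, ranged from 58.8 to 66.8 CPM in the normal-diet group, 73.4 to 80.6 in the high-fat group and 64.4 to 71.6 in the BCKDK group. It rose by 0.30 with the diet (SE 0.08, adjusted p = 0.0154), a call lost without ND AAV-CON replicate 1 or 2 (adjusted p from 0.0571 to 0.058). The vector change of -0.18 was not called. Gsr, the glutathione reductase, had log2 changes of 0.12 and 0.18, and Prdx1, a cytosolic peroxiredoxin, of -0.11 and 0.27. Neither gene was called in either comparison, and the vector change of Prdx1 passed without HFD AAV-CON replicate 2 (adjusted p = 0.0221) and with DESeq2.

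The subunits of glutamate-cysteine ligase, the first enzyme of glutathione synthesis, went apart. Gclm, the modifier subunit, stood at 55.7, 56.7 and 54.3 CPM in the normal-diet group, 32.8, 37.3 and 34.7 in the high-fat group and 51.4, 46.7 and 46.5 in the BCKDK group. The 3 groups did not overlap, with HFD AAV-CON the lowest. Gclm fell by 0.67 with the diet (SE 0.08, adjusted p = 0.000585) and rose by 0.47 with the vector (SE 0.08, adjusted p = 0.00259), the latter not on the total-count scale (adjusted p = 0.888). Gclc, the catalytic subunit, stood at 15.0, 13.7 and 15.4 CPM in the normal-diet group, 15.7, 14.2 and 17.3 in the high-fat group and 13.4, 14.1 and 16.2 in the BCKDK group, and its changes of 0.098 and -0.11 were not called. The ratio of Gclm to Gclc counts, chosen after the values were seen, averaged 3.79 ± 0.316 in the normal-diet group, 2.24 ± 0.339 in the high-fat group and 3.33 ± 0.484 in the BCKDK group (SD, n = 3). It does not depend on library scaling. An exact two-sided permutation test gave p = 0.1 for the diet and for the vector, the smallest p that 3 against 3 libraries allow.

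**Figure D2:**
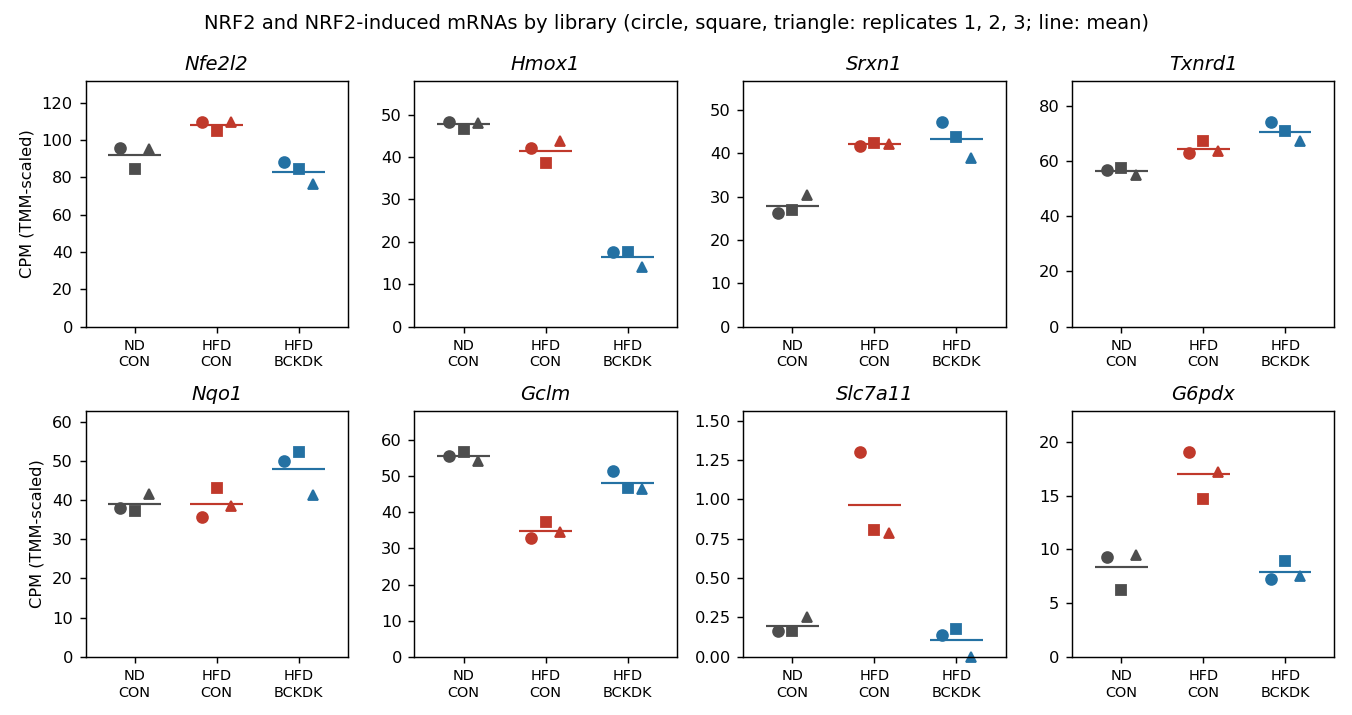
CPM per library (y axis, TMM-scaled, from 0; circles, squares and triangles are replicates 1, 2 and 3, lines the group means) of the regulator Nfe2l2 and selected NRF2-induced genes in the 3 groups. Hmox1 is low in the BCKDK group alone, Srxn1 is high in both high-fat groups, and Gclm is lowest in the high-fat group.

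Slc7a11 brings cystine, the limiting precursor of glutathione, into the cell. It had 6, 6 and 10 counts in the normal-diet group, 81, 30 and 33 in the high-fat group and 4, 5 and 0 in the BCKDK group. Only the HFD AAV-CON libraries carried it past the filter on low counts, so a difference was built into that selection. It was called risen with the diet (2.31, SE 0.66, adjusted p = 0.0198), though not without ND AAV-CON replicate 1 or 2 or HFD AAV-CON replicate 1 or 3 (adjusted p from 0.0517 to 0.0783). With the vector it was called fallen (log2 change -3.30, SE 0.74, adjusted p = 0.00973). G6pdx, glucose-6-phosphate dehydrogenase and the entry to the NADPH-making pentose phosphate pathway, stood at 9.27, 6.24 and 9.52 CPM in the normal-diet group, 19.1, 14.6 and 17.2 in the high-fat group and 7.20, 8.91 and 7.55 in the BCKDK group. Each HFD AAV-CON library was above all the others. G6pdx rose by 1.03 with the diet (SE 0.17, adjusted p = 0.00214) and fell by 1.11 with the vector (SE 0.18, adjusted p = 0.00242). Of its exon bases 13.6% overlap Ikbkg on the opposite strand, and the sources used here do not say whether the counting used strand.

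Gstm1 and Gsta4 are glutathione transferases, Gsta4 being the one that conjugates the lipid peroxidation product 4-hydroxynonenal. Gstm1 stood at 251, 231 and 249 CPM in the normal-diet group, 67.0, 166 and 101 in the high-fat group and 222, 217 and 209 in the BCKDK group. The HFD AAV-CON libraries were the lowest and the most spread. Gstm1 fell by 1.13 with the diet (SE 0.26, adjusted p = 0.00787) and rose by 0.96 with the vector (SE 0.26, adjusted p = 0.0193), the latter not without HFD AAV-CON replicate 3 or HFD AAV-BCKDK replicate 1 or 2 (adjusted p from 0.0528 to 0.0657). It has close relatives in a gene cluster, so shared reads are possible. Gsta4 ranged from 50.2 to 55.2 CPM in the normal-diet group, 20.9 to 47.0 in the high-fat group and 52.1 to 71.1 in the BCKDK group. It fell by 0.68 (SE 0.24, adjusted p = 0.0473) and rose by 0.85 (SE 0.24, adjusted p = 0.0246). Its diet call was lost without any 1 of 8 libraries, all except HFD AAV-CON replicate 2 (adjusted p from 0.0523 to 0.119), and its vector call without HFD AAV-CON replicate 3 or HFD AAV-BCKDK replicate 1 or 2 (adjusted p from 0.0545 to 0.0844). Nqo1, the quinone reductase often read as an NRF2 reporter, stood at 38.0, 37.3 and 41.5 CPM in the normal-diet group, 35.7, 43.0 and 38.4 in the high-fat group and 50.1, 52.2 and 41.3 in the BCKDK group, with overlapping groups. Its diet change was 0.0032 (SE 0.11), not called here but called risen on the total-count scale (0.39, adjusted p = 0.0157). Its vector change of 0.29 (SE 0.11, adjusted p = 0.0556) was not called here, but passed with RLE or upper-quartile scaling, with DESeq2, and without HFD AAV-CON replicate 2 or HFD AAV-BCKDK replicate 3 (adjusted p from 0.014 to 0.0282).

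All 5 mitochondrial genes with a single row fell with the diet and rose with the vector. Sod2, the matrix manganese superoxide dismutase, stood at 454, 507 and 462 CPM in the normal-diet group, 184, 360.4 and 268 in the high-fat group and 517, 469.9 and 431 in the BCKDK group. The HFD AAV-CON libraries lay below both other groups, replicate 1 lowest and replicate 2 highest of the 3. Sod2 fell by 0.81 with the diet (SE 0.21, adjusted p = 0.0122) and rose by 0.80 with the vector (SE 0.21, adjusted p = 0.016). Prdx3, the main matrix peroxiredoxin, stood at 259, 295 and 265 CPM in the normal-diet group, 114, 215 and 160.3 in the high-fat group and 296, 264 and 258 in the BCKDK group, with the HFD AAV-CON libraries in the same order. It fell by 0.74 (SE 0.19, adjusted p = 0.0136) and rose by 0.74 (SE 0.19, adjusted p = 0.0171). Prdx5, a peroxiredoxin of mitochondria, peroxisomes and cytosol, fell by 0.69 and rose by 0.64. Txn2, the matrix thioredoxin, fell by 0.56 and rose by 0.55, and Txnrd2, its reductase, fell by 0.61 and rose by 0.50. Opposite-strand genes overlap 19.1% of the exon bases of Prdx5 and 4.0% of those of Txnrd2.

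The mitochondrial calls in the vector comparison depended on single libraries, as did the number of all genes called, 5410 in the full fit. Without HFD AAV-CON replicate 3 the diet gave 3 of 5 fallen and the vector 0 of 5 risen, with vector log2 changes from 0.46 to 0.82. The vector likewise gave 0 of 5 risen without HFD AAV-BCKDK replicate 1. Of all genes, the vector comparison called 2847 without HFD AAV-CON replicate 3 and 3194 without HFD AAV-BCKDK replicate 1. In these 2 fits the lost vector calls of Sod2, Prdx3 and Txnrd2 had adjusted p from 0.0509 to 0.0581. The lost diet calls were those of Txn2 (adjusted p from 0.053 to 0.059) and Prdx5 (adjusted p from 0.0617 to 0.0728), which were also lost without ND AAV-CON replicate 2. The vector calls of Prdx5 and Txn2 were lost without HFD AAV-BCKDK replicate 2 as well, and that of Prdx5 also without HFD AAV-CON replicate 1 or HFD AAV-BCKDK replicate 3. On the total-count scale 3 of 5 fell with the diet and 2 of 5 rose with the vector, and no direction changed. Of all genes, that scale put 934 down with the diet and 398 up with the vector.

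The 5 single-row mitochondrial antioxidant genes were also set against other mitochondrial genes. Among 20 nuclear genes for respiratory chain, citrate cycle, import and other mitochondrial proteins, a list used for scale, 19 fell with the diet and 20 rose with the vector, with median changes of -0.72 and 0.67. The medians of the 5 antioxidant genes were -0.69 and 0.64. Summed, the 5 antioxidant genes held 5.94%, 6.20% and 6.07% of the counts of the 20 in the normal-diet group, 5.93%, 5.96% and 5.91% in the high-fat group and 6.25%, 6.12% and 5.90% in the BCKDK group. The 9 libraries thus stayed between 5.90% and 6.25%, while the summed CPM of the 20 genes ranged from 8860 to 20790. Of the 13 mitochondrially encoded mRNAs, 5 fell with the diet and 11 rose with the vector. In bulk tissue, fewer cells of a type and less RNA per cell cannot be told apart. The summed cardiomyocyte markers ranged from 56550 to 59330 CPM in the normal-diet group, 25190 to 45440 in the high-fat group and 50300 to 54860 in the BCKDK group. Of these 12 markers 10 fell with the diet and 7 rose with the vector, and their part in the mitochondrial result was not tested.

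**Figure D3:**
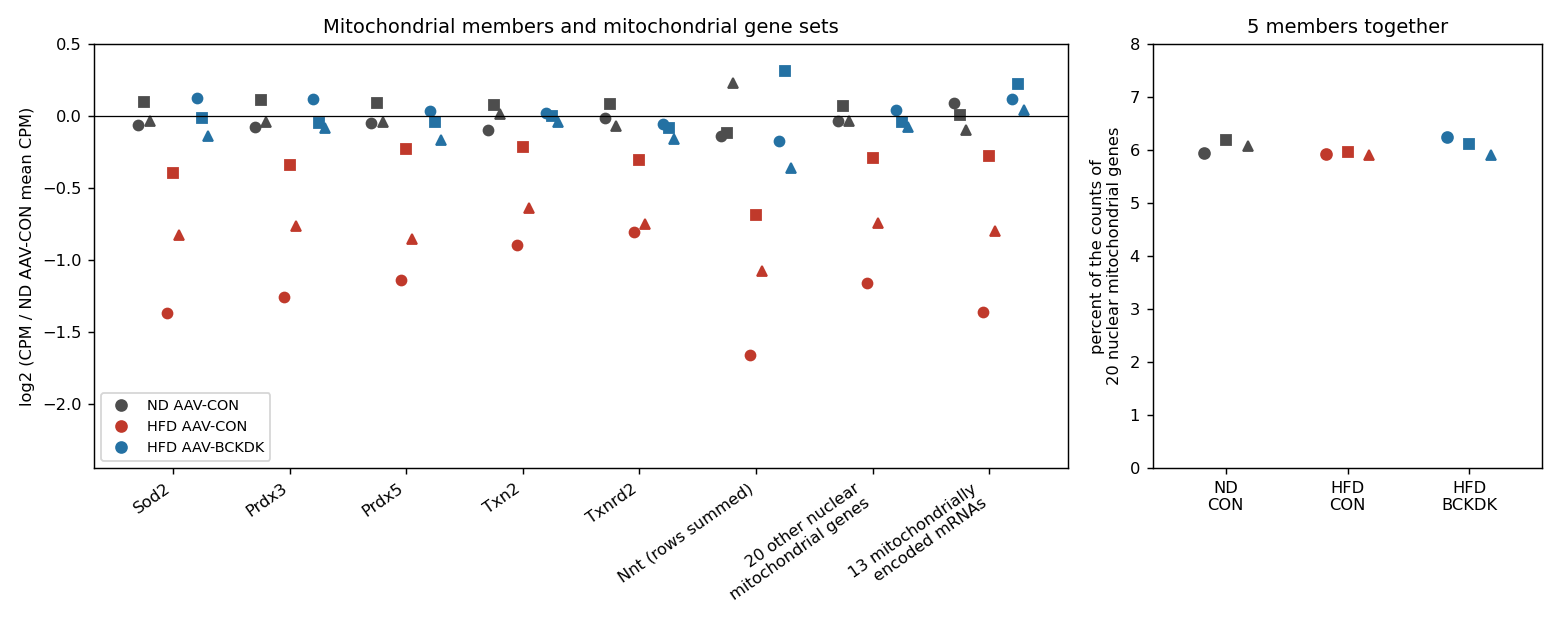
Left, log2 of CPM over the ND AAV-CON mean for each mitochondrial gene and for summed mitochondrial gene sets (circles, squares and triangles are replicates 1, 2 and 3). Right, the counts of the 5 single-row genes as a percentage of the counts of 20 other nuclear mitochondrial genes, which stays between 5.90% and 6.25% in all 9 libraries.

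Nnt, the transhydrogenase of the inner membrane that makes matrix NADPH, is split over rows ENSMUSG00000025453 and ENSMUSG00000116207, whose models lie on the minus strand of chromosome 13. All 3339 exon bases of the second model lie inside the 7037 of the first. The first row held either 1.93% to 7.43% or 60.5% to 73.6% of a library's Nnt counts, with no library between. Each group had libraries of both kinds, and neither row was called in any comparison. Added together, an alternative chosen after the data were seen, the rows gave 386, 391 and 496 CPM in the normal-diet group, 134, 263 and 201 in the high-fat group and 376, 528 and 329 in the BCKDK group. The summed HFD AAV-CON values were below all others, with replicate 1 again the lowest. Summed Nnt fell by 1.09 with the diet (SE 0.25, adjusted p = 0.00807) and rose by 1.04 with the vector (SE 0.25, adjusted p = 0.0127). Relative to Sod2, the summed Nnt counts gave ratios of 0.849, 0.771 and 1.07 in the normal-diet group, 0.729, 0.729 and 0.751 in the high-fat group and 0.727, 1.12 and 0.764 in the BCKDK group. The ratio, which rests on that sum chosen after the data were seen, was lower in every high-fat than in every normal-diet library. An exact two-sided permutation test gave p = 0.1, the smallest possible, which only restates that these groups did not overlap. The BCKDK group overlapped both (exact two-sided permutation p = 0.4 against the high-fat group). The highest ratios, 0.849, 1.07 and 1.12, came from libraries with only 7.43%, 1.93% and 3.77% of their Nnt counts in the first row. ND AAV-CON replicate 2, with 66.1% there, had 0.771, and HFD AAV-CON replicate 1, with 3.21%, had 0.729. The part of the row split in the ratio was not tested. Nnt is not among the 5 genes summed above, and its diet change was larger in size than the median of -0.72 of the 20 genes, a difference that was not tested. With this sum, 15 of the 36 genes fell with the diet and 15 rose with the vector.

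**Figure D4:**
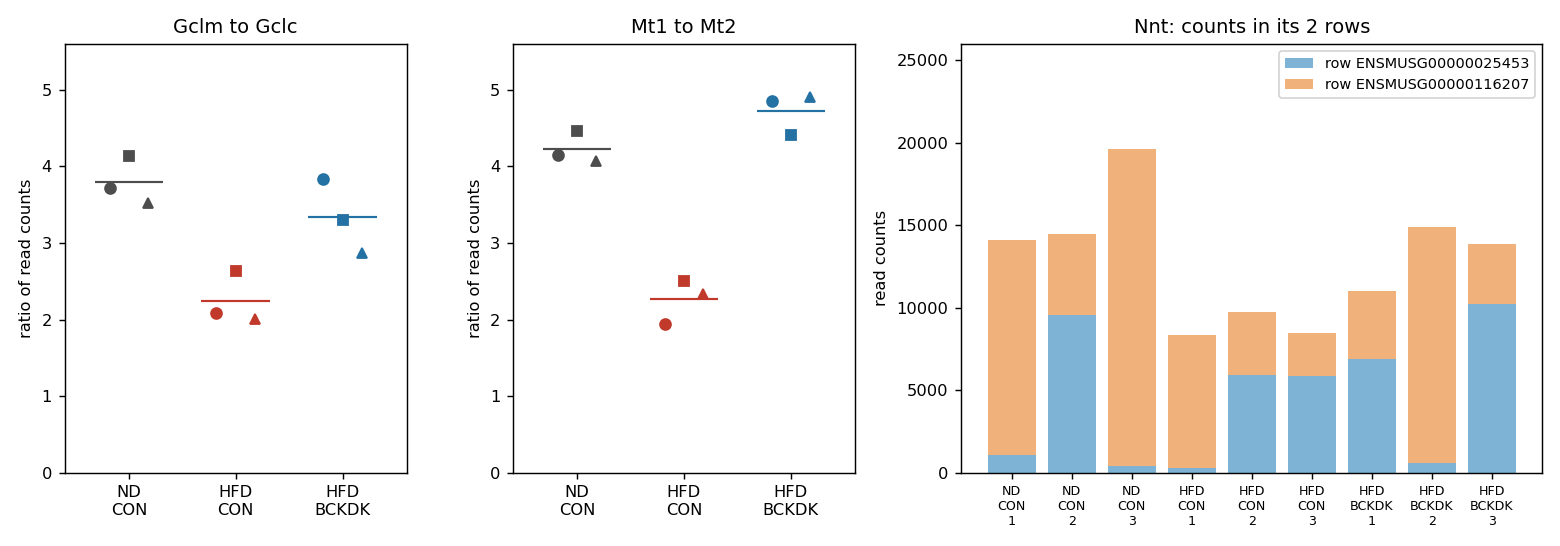
Ratios of read counts of Gclm to Gclc and of Mt1 to Mt2 by group (circles, squares and triangles are replicates 1, 2 and 3, lines the group means), and the read counts of both Nnt rows in each library (stacked bars). Both ratios are lowest in the high-fat group, and the share of Nnt reads in a row varies between libraries of the same group.

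Of the 12 genes of the cytosol, other organelles and the extracellular space, 4 rose with the diet (Gpx1, Gpx3, Sod3 and Mt2), 6 fell (Sod1, Cat, Gpx4, Prdx2, Prdx6 and Txnip) and 2 were not called. With the vector those 6 rose, 4 fell (Gpx1, Sod3, Mt2 and Prdx4) and 2 were not called. As shares of the 12, 33.3% rose and 50% fell with the diet, against 22.7% and 20.6% of all genes. With the vector 50% rose and 33.3% fell, against 17.3% and 20.9%. Without HFD AAV-CON replicate 3 there were 3 risen and 2 fallen with the diet, and 2 risen and 3 fallen with the vector. In that fit 4050 of all genes were called with the diet and 2847 with the vector, against 6134 and 5410 in the full fit. On the total-count scale there were 4 risen and 2 fallen with the diet, and 1 risen and 5 fallen with the vector. Of all genes, that scale put 5986 up and 934 down with the diet, and 398 up and 6867 down with the vector.

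The superoxide dismutases of these compartments moved in opposite directions. Sod1, the copper-zinc enzyme of the cytosol, ranged from 177 to 204 CPM in the normal-diet group, 97.2 to 163 in the high-fat group and 192 to 216 in the BCKDK group. It fell by 0.55 with the diet (SE 0.16, adjusted p = 0.0233), not without ND AAV-CON replicate 2 or 3 or HFD AAV-CON replicate 3 (adjusted p from 0.0506 to 0.0772), and rose by 0.66 with the vector (SE 0.16, adjusted p = 0.0145). Sod3, the secreted enzyme of the extracellular matrix, stood at 50.7, 51.4 and 52.3 CPM in the normal-diet group, 121, 76.1 and 102 in the high-fat group and 52.9, 60.4 and 51.3 in the BCKDK group. Every HFD AAV-CON library exceeded the others, replicate 1 most and replicate 2 least. Sod3 rose by 0.95 (SE 0.15, adjusted p = 0.00154) and fell by 0.86 (SE 0.15, adjusted p = 0.00331).

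Among the glutathione peroxidases, Gpx1, the abundant selenoenzyme of cytosol and mitochondria, stood at 72.2, 83.9 and 82.1 CPM in the normal-diet group, 149, 105 and 134 in the high-fat group and 65.6, 66.4 and 67.6 in the BCKDK group. The 3 groups did not overlap, with HFD AAV-BCKDK the lowest. Gpx1 rose by 0.71 with the diet (SE 0.12, adjusted p = 0.00228) and fell by 0.96 with the vector (SE 0.12, adjusted p = 0.00131). Gpx4, which reduces lipid peroxides in membranes, had 398, 507 and 454 CPM in the normal-diet group, 239.6, 375 and 304 in the high-fat group and 540.3, 460.2 and 429 in the BCKDK group. Its order was the reverse of that of Gpx1, with every HFD AAV-CON library below the rest. Gpx4 fell by 0.57 (SE 0.17, adjusted p = 0.0241), not without ND AAV-CON replicate 2 or 3 or HFD AAV-CON replicate 1 or 3 (adjusted p from 0.0537 to 0.0871). It rose by 0.64 (SE 0.17, adjusted p = 0.0184), not without HFD AAV-CON replicate 3 or HFD AAV-BCKDK replicate 1 (adjusted p from 0.0555 to 0.0674). Gpx3, the plasma peroxidase, rose by 0.39 with the diet (SE 0.13, adjusted p = 0.0382) with overlapping groups. That call was lost without any 1 of 7 libraries (adjusted p from 0.053 to 0.129), all except ND AAV-CON replicate 3 and HFD AAV-CON replicate 2. Its vector change of -0.24 was not called, but passed without HFD AAV-CON replicate 2 (adjusted p = 0.0244) and on the total-count scale.

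Cat, the peroxisomal catalase, stood at 274, 252 and 254 CPM in the normal-diet group, 154, 239.9 and 178 in the high-fat group and 304, 311 and 292 in the BCKDK group. HFD AAV-CON was lowest and HFD AAV-BCKDK highest, without overlap. Cat fell by 0.45 with the diet (SE 0.15, adjusted p = 0.0331), a call lost without any 1 of 7 libraries (adjusted p from 0.0502 to 0.11), all except HFD AAV-CON replicate 2 and HFD AAV-BCKDK replicate 1. It rose by 0.67 with the vector (SE 0.15, adjusted p = 0.00879). Prdx2, the cytosolic peroxiredoxin abundant in red cells, fell by 0.65 (SE 0.16, adjusted p = 0.01) and rose by 0.54 (SE 0.16, adjusted p = 0.0261), the latter not without HFD AAV-CON replicate 3 or any HFD AAV-BCKDK library (adjusted p from 0.0553 to 0.0797). Opposite-strand genes overlap 11.5% of its exon bases, and the summed erythroid markers ranged from 1497 to 1676 CPM in the normal-diet group, 471 to 916 in the high-fat group and 987 to 1587 in the BCKDK group. Their part in the Prdx2 result was not tested. Prdx6, which also acts on phospholipid peroxides, fell by 0.38 (adjusted p = 0.038) and rose by 0.49 (adjusted p = 0.018). Its diet call was lost without any 1 of 8 libraries, all except HFD AAV-CON replicate 2 (adjusted p from 0.0536 to 0.102), and its vector call without HFD AAV-CON replicate 3 or HFD AAV-BCKDK replicate 1 (adjusted p from 0.0543 to 0.0548). Prdx4, of the endoplasmic reticulum, fell with the vector by 0.44 (adjusted p = 0.0486), a call lost without any 1 of 8 libraries, all except HFD AAV-CON replicate 2 (adjusted p from 0.0549 to 0.211).

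Txnip, the arrestin-like protein that binds and inhibits thioredoxin, stood at 973, 1055 and 1102 CPM in the normal-diet group, 566, 715 and 609 in the high-fat group and 766, 858 and 955 in the BCKDK group. The groups did not overlap, and HFD AAV-BCKDK lay between the others. Txnip fell by 0.73 with the diet (SE 0.13, adjusted p = 0.00249) and rose by 0.45 with the vector (SE 0.13, adjusted p = 0.0236), the latter not without HFD AAV-CON replicate 3 or HFD AAV-BCKDK replicate 2 or 3 (adjusted p from 0.0653 to 0.0828). Its paralog Arrdc4, which like Txnip is a target of the glucose sensor MondoA and was chosen after values were seen, rose by 0.91 with the diet (adjusted p = 0.00226) and fell by 0.58 with the vector (adjusted p = 0.0184).

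The metallothioneins, small cysteine-rich proteins that bind zinc and copper and scavenge radicals, also went apart. Mt1 stood at 109, 168 and 149.8 CPM in the normal-diet group, 97.1, 193 and 119.5 in the high-fat group and 181, 174 and 128 in the BCKDK group, with overlapping groups. Its changes of -0.062 and 0.24 were not called, though the second passed without HFD AAV-CON replicate 2 (adjusted p = 0.0353). Mt2 stood at 26.4, 37.7 and 36.8 CPM in the normal-diet group, 50.0, 76.8 and 51.2 in the high-fat group and 37.2, 39.4 and 26.0 in the BCKDK group, HFD AAV-CON above the rest. Mt2 rose by 0.82 with the diet (SE 0.22, adjusted p = 0.0145), not without ND AAV-CON replicate 1 (adjusted p = 0.0541). It fell by 0.80 with the vector (SE 0.22, adjusted p = 0.02), not without HFD AAV-BCKDK replicate 3 (adjusted p = 0.064). The ratio of Mt1 to Mt2 counts, chosen after the values were seen, was 4.15, 4.46 and 4.07 in the normal-diet group, 1.94, 2.51 and 2.34 in the high-fat group and 4.85, 4.41 and 4.90 in the BCKDK group. The HFD AAV-CON ratios lay below all others (exact two-sided permutation p = 0.1 with the diet and with the vector, again the smallest p possible). The glucocorticoid target Fkbp5 rose by 1.56 and fell by 0.98 (adjusted p = 0.000757 and 0.00599), and it too was chosen after values were seen. Its list of 9 genes holds metal and glucocorticoid response genes and also Arrdc4. Of the 9, 5 rose with the diet and 3 fell with the vector, Arrdc4 being counted in both. As shares these were 55.6% and 33.3%, against 22.7% and 20.9% of all genes. Of that list, Sgk1, Tsc22d3, Per1 and Slc30a1 were not called with the diet (-0.30, 0.26, 0.0065 and -0.15). Zbtb16 and Slc39a14 rose with the diet by 0.96 and 0.70, but their vector changes of 0.025 and 0.18 were not called.

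**Figure D5:**
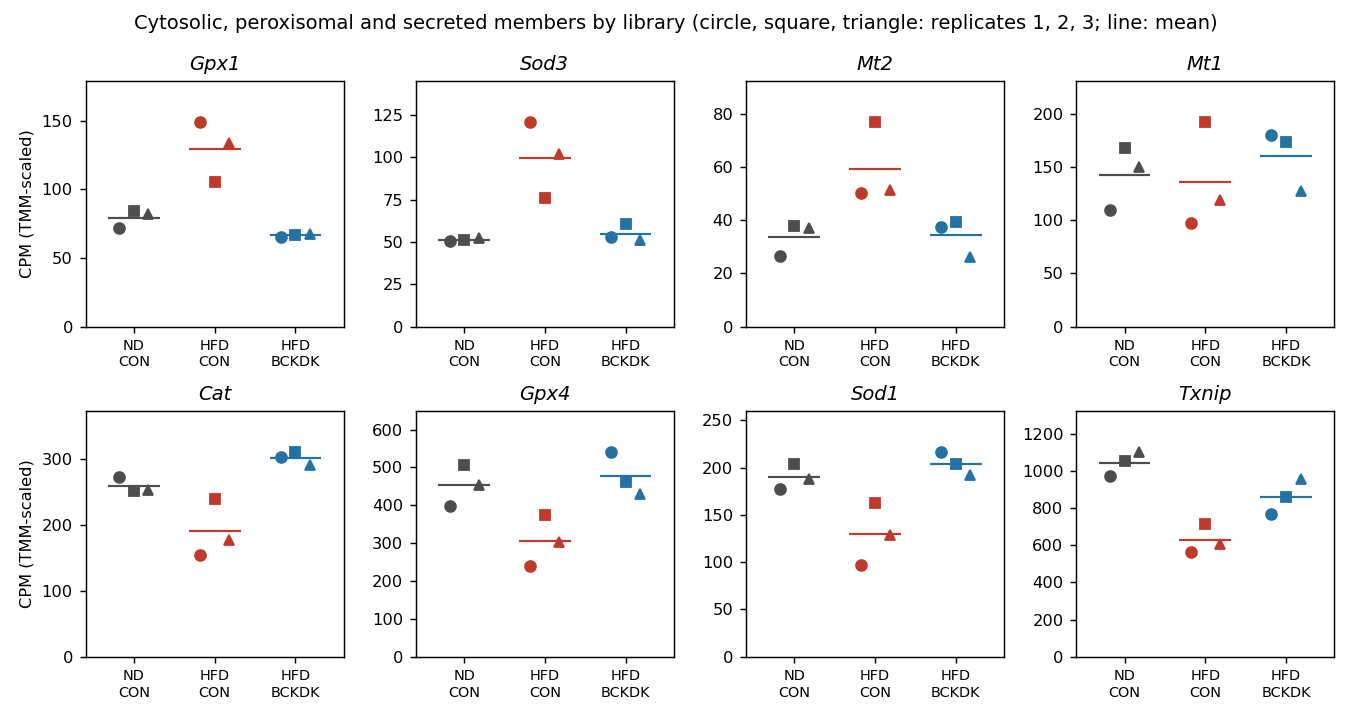
CPM per library (y axis, TMM-scaled, from 0; circles, squares and triangles are replicates 1, 2 and 3, lines the group means) of genes of the cytosol, other organelles and the extracellular space. Gpx1, Sod3 and Mt2 are highest in the high-fat group, whereas Sod1, Cat, Gpx4 and Txnip are lowest there.

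The HFD AAV-CON libraries differed in how far each gene was displaced. For Sod2, Prdx3, summed Nnt, Gpx1, Sod3 and Gstm1, replicate 1 lay farthest from ND AAV-CON and replicate 2 nearest to it. The same order held for the mitochondrial share of counts and for the summed cardiomyocyte markers. Srxn1, at 41.6 to 42.4 CPM, and Nfe2l2, at 104.8 to 109.8 CPM, hardly varied between those 3 libraries. The macrophage and monocyte markers summed to between 738.9 and 1013 CPM in the normal-diet group, 1981 and 3207 in the high-fat group and 573 and 758 in the BCKDK group, and 11 of 12 rose with the diet and 11 fell with the vector. Fibroblast markers summed to between 2474 and 2573, 3305 and 5622, and 2348 and 2541 CPM in the same order of groups, and 7 of 10 rose and 8 fell. Endothelial markers summed to between 1817 and 1912, 915 and 1339, and 1592 and 1806 CPM, and 7 of 9 fell with the diet and 8 rose with the vector. The T and NK cell markers were also highest in the high-fat group, at 93.9 to 172 CPM against at most 36.9 in the other groups. No marker of these 4 lists that the table holds was at 0 in all libraries. Their part in the values of Sod3, Gpx1, Ftl1, G6pdx, Slc7a11 and Mt2, which moved in the same direction as the macrophage and fibroblast sums, and of the genes that moved with the cardiomyocyte sum, was not tested.

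Between the BCKDK and the normal-diet group both diet and vector differed. That comparison called 3 of the 36 genes, 2 risen and 1 fallen, where 2.45% of all genes were called (1.18% risen and 1.27% fallen). Hmox1 averaged 47.7 ± 0.880 (SD, n = 3) CPM in the normal-diet group and 16.4 ± 1.96 (SD, n = 3) in the BCKDK group, and it fell by 1.54 (SE 0.10, adjusted p = 0.00031). Srxn1 averaged 27.8 ± 2.19 (SD, n = 3) and 43.3 ± 4.17 (SD, n = 3), and it rose by 0.64 (SE 0.09, adjusted p = 0.0101). Txnrd1 rose by 0.33 (SE 0.07, adjusted p = 0.0433). The Srxn1 call was lost without ND AAV-CON replicate 1 or 2 or HFD AAV-BCKDK replicate 2 (adjusted p from 0.0531 to 0.0625), and the Txnrd1 call without any 1 of 7 libraries (adjusted p from 0.0839 to 0.159), all except HFD AAV-CON replicates 1 and 2. Among the 33 genes not called, Gsr had a log2 change of 0.29 (SE 0.07, adjusted p = 0.07), which passed without HFD AAV-CON replicate 2 (adjusted p = 0.0366) and with DESeq2. Besides Gsr, Cat (0.22) and Prdx6 (0.11) were higher in every BCKDK library than in any normal-diet library without being called. Gstm1 (-0.17), Gclm (-0.20), Gpx1 (-0.25), Txnip (-0.28), Prdx4 (-0.48) and Blvrb (-0.34) were lower in every BCKDK library without being called. With the called genes, 5 of the 36 were higher and 7 lower, where 27.7% of all genes had groups that did not overlap. The 5 single-row mitochondrial genes were not called, and Sod2 had a log2 change of -0.0063 (SE 0.20). A missed threshold does not show equal levels.

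Of 88 further genes of the same pathways, taken from lists chosen with earlier results of these data known, 12 rose and 35 fell with the diet, and 35 rose and 14 fell with the vector. These were 13.6% and 39.8% of the 88 with the diet, against 22.7% and 20.6% of all genes. With the vector they were 39.8% and 15.9%, against 17.3% and 20.9%. HFD AAV-BCKDK against ND AAV-CON called 3 of them, 1 risen and 2 fallen. These were 1.14% and 2.27% of the 88, against 1.18% and 1.27% of all genes. Among 25 partners, repressors and further targets of NRF2, 5 rose and 3 fell with the diet, and 5 rose and 5 fell with the vector. As shares these were 20% and 12% with the diet, against 22.7% and 20.6% of all genes, and 20% and 20% with the vector, against 17.3% and 20.9%. The share risen with the diet and both vector shares thus lay near the background. Slc3a2, the heavy chain that pairs with Slc7a11 in the cystine transporter, rose by 0.83 with the diet and fell by 0.80 with the vector (adjusted p = 0.00059 and 0.00126). Pgd and Tkt, pentose phosphate enzymes downstream of G6pdx, rose by 0.73 and 0.65 and fell by 0.58 and 0.71 respectively. Me1, the cytosolic malic enzyme that also makes NADPH, had a diet change of -0.28 and rose by 0.78 with the vector. Slc40a1, the iron exporter ferroportin, fell by 1.76 with the diet (adjusted p = 0.00275) and rose by 1.34 with the vector (adjusted p = 0.0116).

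Among 31 further genes of glutathione synthesis, transfer and recycling, 1 rose and 18 fell with the diet, and 18 rose and 3 fell with the vector. The fallen were 58.1% of the 31 with the diet, and the risen 58.1% with the vector, against 20.6% and 17.3% of all genes. The risen with the diet were 3.23%, against 22.7%, and the fallen with the vector 9.68%, against 20.9%. The gene that rose with the diet was Anpep, an aminopeptidase that acts on glutathione breakdown products and is also a myeloid and pericyte surface protein (1.66 with the diet and -1.52 with the vector). The transferases Gstt2, Gstz1 and Gsto1 fell by 1.62, 0.88 and 0.81 with the diet and rose by 1.08, 0.54 and 0.61 with the vector. Glrx5, a mitochondrial glutaredoxin of iron-sulfur cluster assembly, rose by 0.75 with the vector, and the cytosolic Glrx fell by 0.55. Among 20 thioredoxin-related, selenoprotein and repair genes, 3 rose and 7 fell with the diet, and 9 rose and 3 fell with the vector. These were 15% and 35% with the diet, against 22.7% and 20.6% of all genes, and 45% and 15% with the vector, against 17.3% and 20.9%. The sestrins differed: Sesn1 fell by 0.77 with the diet and Sesn2 rose by 1.12, while Sesn3 had a diet change of 0.40 that was not called and fell by 0.70 with the vector. Pdxk, pyridoxal kinase, rose by 0.89 and fell by 0.57, and Oxr1, an oxidation resistance gene, fell by 0.39 with the diet. Msra, a methionine sulfoxide reductase, and the selenoprotein gene Selenot rose with the vector by 0.60 and 0.26.

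Of 12 further genes of NADPH supply, 3 rose and 7 fell with the diet, and 3 rose and 3 fell with the vector. These were 25% and 58.3% with the diet, against 22.7% and 20.6% of all genes, and 25% and 25% with the vector, against 17.3% and 20.9%. The share risen with the diet and the share fallen with the vector lay near the background. Mthfd2, the mitochondrial folate enzyme, rose by 2.68 with the diet (SE 0.20, adjusted p = 0.00016) and fell by 1.29 with the vector (SE 0.18, adjusted p = 0.00177). It was also called risen in HFD AAV-BCKDK against ND AAV-CON, by 1.40 (SE 0.19, adjusted p = 0.00971). Idh1, the cytosolic isocitrate dehydrogenase, and Aldh1l1, the cytosolic formyltetrahydrofolate dehydrogenase, fell with the diet by 0.77 and 1.78. Both were also lower in the BCKDK group than in the normal-diet group, by -0.56 and -1.34 on the log2 scale (adjusted p = 0.0362 and 0.0449), and their vector changes were not called. Nadk2, the mitochondrial NAD kinase, fell by 0.92 and rose by 0.85, whereas Nadk, the cytosolic one, rose by 0.62 and fell by 0.52. Me2, the mitochondrial malic enzyme, had a diet change of 0.22 that was not called and fell by 0.55 with the vector.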

How the data were processed

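The authors deposited a table of unnormalized read counts, 1 column per library. Per the labels' protocols, Trizol RNA from left ventricles was sequenced after preparation with a VAHTS mRNA-seq kit. Per the submitters' processing notes, HISAT2 2.0.5 and mm10 were used. Counting tool, annotation and strand setting: not given in the sources used here. Of 26178 rows, 4142 were unnamed loci holding 1.02% to 6.01% of a library's counts, and they entered neither library sizes nor tests. Library columns were matched to samples through the labels.

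The analysis used edgeR 4.0.16 (R 4.3.3) with filterByExpr by group (14160 genes kept), TMM factors, and a quasi-likelihood fit with 1 coefficient per group over all 9 libraries. Every adjusted p of a gene is from this edgeR test, adjusted by Benjamini-Hochberg over all genes tested, at a false discovery rate of 0.05. CPM used TMM-scaled library sizes, and exon lengths and overlaps came from GENCODE vM21. Replicate libraries differed beyond sampling noise (chi-square per degree of freedom at least 15.4). The scripts were tested on simulated data.

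Genes and lists were chosen with earlier results of these data known. Values per library were fixed by rule for Nfe2l2, Keap1, Hmox1, Nqo1, Gclc, Gclm, Srxn1, Txnrd1, Slc7a11, Sod2, Nnt, Cat, Txnip and any other of the 36 called with a log2 change of at least 1 in size, and of the pathway lists up to 4 genes with the smallest p per comparison were named. Other per-library values were chosen after they were seen. Alternatives were RLE, upper-quartile and total-count scaling, other filters, DESeq2 1.42.0, limma-voom (limma 3.58.1), fits of 2 groups, a replicate block, a stricter threshold and leaving out each library.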

Additional observations from a re-analysis of the deposited data

How the results depend on the processing

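Leaving out 1 library gave 5 to 10 of the 36 genes risen and 7 to 14 fallen with the diet (4050 to 7325 of all genes called), 3 to 18 risen and 6 to 10 fallen with the vector (2847 to 6978), and 0 to 3 risen and 1 fallen in HFD AAV-BCKDK against ND AAV-CON (43 to 744). A false discovery rate of 0.01 gave 5 risen and 4 fallen with the diet (3254 genes called), 2 and 6 with the vector (2058), and 0 risen in the third comparison (64). Total-count scaling gave 17 risen and 7 fallen with the diet, 4 and 16 with the vector, and 0 risen in the third (136 genes called). In the third comparison, 1 gene rose with no filter beyond 1 count, DESeq2 called 902 genes, and a fit of the 2 groups alone gave 2 fallen and 873 genes. There the replicate block gave 1 risen and 107 genes.

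Setting the replicate number as a block gave 8 risen and 13 fallen with the diet and 14 and 8 with the vector. Deviations of same-numbered libraries correlated between -0.275 and 0.252, so the numbers were not taken to pair the samples.

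Direction turned only for values not called in the reported fit, among the alternatives run. Under total-count scaling the diet changes were Hmox1 0.21, Fth1 0.26, Prdx4 0.39, Prdx1 0.27, Mt1 0.28 and Blvrb 0.39, and the vector changes Keap1 -0.31, Nqo1 -0.15, Txnrd1 -0.32, Fth1 -0.35, Prdx1 -0.17, Gsr -0.28, Mt1 -0.17 and Srxn1 -0.42. Of these, the diet changes of Fth1 and Prdx1 (adjusted p = 0.048 and 0.0427) and the vector changes of Txnrd1, Fth1 and Srxn1 (0.0271, 0.0148 and 0.0258) were called in the turned direction. The diet change of Nqo1 was -0.021 with upper-quartile factors and -0.0016 with the replicate block. Without single libraries, diet changes ranged from -0.064 to 0.12 for Keap1, -0.075 to 0.059 for Nqo1, -0.22 to 0.089 for Prdx4, -0.40 to 0.13 for Mt1 and -0.053 to 0.051 for Blvrb. The vector change of Srxn1 ranged from -0.023 to 0.12, and that of summed Nnt in the third comparison from -0.27 to 0.089. The cause was not tested.

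Over the alternatives run, the threshold aside, 12 of 26 diet calls (summed Nnt included) were kept in each: Prdx2, Sod2, Prdx3, summed Nnt, Gclm, G6pdx, Srxn1, Txnip, Ftl1, Gstm1, Gpx1 and Sod3. With the vector 8 of 25 were kept: Hmox1, Nfe2l2, summed Nnt, Cat, Slc7a11, G6pdx, Gpx1 and Sod3. Fits of the 2 groups alone ended the diet calls of Nfe2l2, Gpx3, Txnrd1, Sod1, Prdx6, Cat and Gsta4 and the vector calls of Prdx2, Prdx5, Prdx4, Gsta4, Txnip, Blvrb and Ftl1. Total-count scaling ended the diet calls of Txn2, Txnrd2, Sod1, Prdx6, Cat, Gsta4 and Gpx4 and the vector calls of Prdx2, Prdx5, Prdx6, Txn2, Txnrd2, Sod1, Gpx4, Gclm, Gsta4 and Txnip. Slc7a11 could not be tested under the filter at 1 CPM, so its vector call was kept only in the alternatives that tested it. Only the HFD AAV-CON libraries carried it past the reported filter, so a difference was built into that selection. Depth limits Slc7a11 most, at 0 to 10 counts per library outside HFD AAV-CON.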
